A study of Mus musculus with 4 samples.

Results

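The core p53 target genes examined here are 10 genes: Cdkn1a, Mdm2, Ccng1, Zmat3, Plk2, Phlda3, Eda2r, Trp53inp1, Sesn1 and Btg2. They were selected by their gene symbol in the count files, with no threshold on their values. The members and the gene lists read beside them were, however, chosen with earlier results of these data known. Their counts beside all tested genes are thus a description and not independent support. All 10 were present among the 55291 gene symbols of the files, and all 10 passed the filter on low counts that left 19134 genes for testing. RNA of whole mouse pancreas was sequenced in 4 libraries. The 2 control libraries came from Pdx1-Cre+, poh1f/+ mice, which carry 1 floxed and 1 ordinary copy of poh1, and the 2 knockout libraries, named here by their label poh1f/f, came from Pdx1-Cre+, poh1f/f mice, in which both copies are floxed. Both groups thus carry the Cre transgene, driven by Pdx1, a gene of the embryonic cells that give rise to the pancreatic epithelium (acini, ducts and islets) and not to blood, fat or stroma. The labels used here give no age, sex, strain or state of health, and do not say whether each library is a separate animal, so that p-values measure the spread between these libraries, which may be technical. Poh1, now named Psmd14, is the subunit of the proteasome lid that cuts ubiquitin chains off substrates.

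The protein p53, encoded by Trp53, is a transcription factor that is kept scarce by constant ubiquitination and proteasomal destruction. When DNA damage or other stress stops that destruction, p53 accumulates and binds pairs of a short half-site in or near its target genes, which halt the cell cycle, restrain growth signals, repair DNA or bring about cell death. Mdm2, the ligase that marks p53 for the proteasome, is itself a target. The levels of the target genes are widely used as a readout of p53 activity. In the pancreas the pathway is best known as a barrier to tumour growth from acinar and duct cells. The comparison of both groups asks how this readout differs when the second copy of a proteasome subunit is floxed.

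The promoters of several members hold the letters that p53 recognises, and these are shown because binding by p53 is what the genes were grouped for. RefSeq promoters (GRCm38.p6, 250 bases before to 50 bases after a start) were at hand for 8 of the 10 members, with 10 promoters in all. A p53 half-site has 10 bases: purines, then a C, an A or T at each of the next positions, a G, and pyrimidines. It is its own reverse complement, so that a scan of 1 strand covers both. An exact half-site was present in 1 promoter each of Cdkn1a, Ccng1, Mdm2 and Sesn1, and in 8.36% of all 32851 promoters of that length. The best pair of half-sites with no bases between them had 1 mismatch in Cdkn1a and in Ccng1, a match found in 0.0883% of all promoters. In Sesn1 it had 3 mismatches, found in 6.29%. The other members had 4 mismatches in Btg2, 5 in Mdm2, Phlda3 and Plk2, and 6 in Eda2r. Trp53, which is not a member, had an exact half-site and a pair with 3 mismatches. In the lines below capitals mark bases that match the pair and lower case marks mismatches, each read 5′ to 3′ on the gene's strand.
Cdkn1a (chr17:29090928-29090947, plus strand): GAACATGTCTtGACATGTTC
Ccng1 (chr11:40755462-40755481, minus strand): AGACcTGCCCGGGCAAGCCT
Sesn1 (chr10:41887266-41887285, plus strand): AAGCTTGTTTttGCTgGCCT

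Counted from the start, with negative positions upstream, the Cdkn1a pair lies at -51 to -32 of the first RefSeq start of that gene, the Ccng1 pair at -195 to -176, and the Sesn1 pair at -173 to -154 of its second start. The search for pairs without a gap was added after the search with a gap had been seen. In that first search, with up to 13 bases between half-sites, a pair with up to 1 mismatch was in 1.09% of all promoters. A pair with up to 3 mismatches was in 45.1% of all promoters and in 3 of the 10 promoters of members. Cdkn1a also has a pair without mismatch whose half-sites, in capitals here, stand 12 bases apart, and pairs without mismatch at spacings of up to 13 bases were found in 0.0731% of promoters.
Cdkn1a (chr17:29090906-29090937, plus strand): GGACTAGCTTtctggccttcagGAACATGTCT
The promoter of the second Cdkn1a start had no exact half-site, and its best pair had 5 mismatches. The whole 250 bases before the first Cdkn1a start (chr17:29090729-29090978) and the Ccng1 start (chr11:40755287-40755536) follow for context, with exact half-sites in capitals.
Cdkn1a: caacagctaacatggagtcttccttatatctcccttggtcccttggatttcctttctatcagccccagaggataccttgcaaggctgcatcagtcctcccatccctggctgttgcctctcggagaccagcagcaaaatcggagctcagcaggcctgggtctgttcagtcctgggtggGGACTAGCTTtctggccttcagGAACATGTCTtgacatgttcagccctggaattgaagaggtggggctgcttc
Ccng1: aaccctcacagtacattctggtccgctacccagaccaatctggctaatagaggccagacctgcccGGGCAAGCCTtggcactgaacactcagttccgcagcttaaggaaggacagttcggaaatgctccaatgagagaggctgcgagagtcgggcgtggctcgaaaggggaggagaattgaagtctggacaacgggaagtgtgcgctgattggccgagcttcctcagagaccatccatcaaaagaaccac
In the windows of Phlda3, Eda2r, Plk2 and Btg2 no exact half-site was found, which says only that these letters are not within that distance of a RefSeq start. For no member, Mdm2 included, were bases outside these windows searched, such as introns farther from the start. A match describes the letters and is not evidence of binding in these tissues. Zmat3 and Trp53inp1 had no entry.

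Total counts ran from 22875618 to 24635792 in controls and from 27470926 to 27849730 in the libraries labelled poh1f/f. Levels are given as CPM, the read count of a gene relative to the TMM-scaled total of all tested genes, where 1 count was worth 0.0342 to 0.0455 CPM. The least counted member, Eda2r, still had 299 counts in its lowest library, so that no member rested on a handful of reads. The targeted gene, Psmd14, was at 61.6 and 52.9 CPM in controls and at 65.9 and 65.2 CPM in the libraries labelled poh1f/f. It missed the threshold (log2 fold change 0.20 ± 0.11, edgeR adjusted p = 0.259). The counts of the targeted gene thus do not show the deletion, and directions below are directions between labels. Defining markers of pancreas were present in all libraries but differed in amount. The summed level of 15 acinar genes was 13167 and 2692 CPM in controls against 226 and 754 CPM in the libraries labelled poh1f/f. Of 12 enterocyte genes, 4 were at 0 in controls (Sis, Alpi, Apoa4 and Cdx2). Each had counts in at least 1 library labelled poh1f/f. The enterocyte genes summed to 135 and 1064 CPM in knockout replicates 1 and 2, against 271 and 239 CPM in controls. Differences here are knockout minus control, as log2 fold change ± SE from the edgeR quasi-likelihood test on 2 libraries per group, with p-values adjusted over all tested genes.

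Core p53 targets fell in the libraries labelled poh1f/f and none rose. The 6 members that fell were Cdkn1a, Eda2r, Zmat3, Plk2, Ccng1 and Sesn1, while Mdm2, Phlda3, Trp53inp1 and Btg2 did not pass the test. The 6 calls compare with 9.95% of all tested genes called lower, 12.1% called higher and 22.1% called in either direction (edgeR adjusted p under 0.05). Because the members were chosen with earlier results of these data known, this comparison only describes them. The median log2 fold change of the 10 members was -0.68, beside a median of -0.0018 over all tested genes. Both libraries labelled poh1f/f lay below both controls for 8 members, which was so for 33.7% of all tested genes, and above both controls for 0 members against 34.4%. The groups overlapped for Trp53inp1 and Btg2, and 68.1% of all tested genes showed no overlap in one direction or the other, so that separation of the groups by itself was common. Before adjustment, p was under 0.05 for 7 lower members and 0 higher ones. With DESeq2 the calls were 7 lower and 0 higher, and with limma-voom 6 and 0. Without control replicate 1, 3 members were called lower (Cdkn1a, Zmat3 and Plk2) at a median of -0.64, and these 3 passed under each of the 13 alternative settings.

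**Figure D1:**
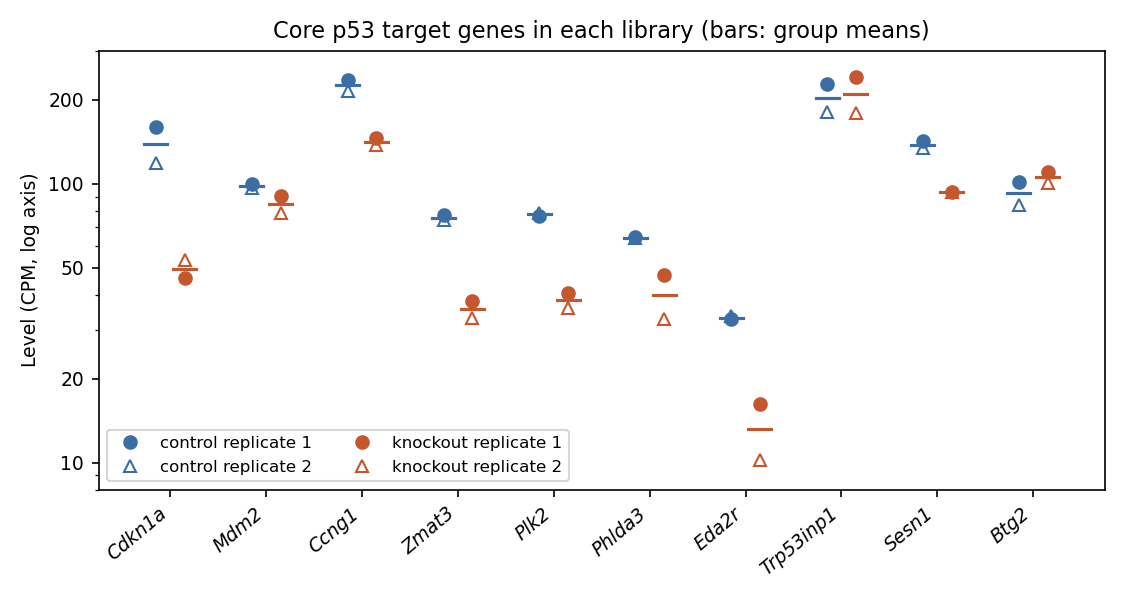
Level of each core p53 target in CPM on a log axis, with 1 point per library (blue control, orange knockout labels; circles replicate 1, triangles replicate 2) and a bar at each group mean. For 8 genes both orange points lie below both blue points, from 10.2 and 16.2 CPM against 32.7 and 33.4 CPM for Eda2r to 78.7 and 90.8 CPM against 96.8 and 99.7 CPM for Mdm2.

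Markers of several cell types differed between the groups beside these genes, and in whole tissue fewer cells of a type and less RNA per cell cannot be told apart. Markers of the cells in which Pdx1-Cre is active were lower beside the p53 targets: 9 of 15 acinar, 10 of 12 duct and 7 of 12 islet genes fell by edgeR. With DESeq2 the falls were 13 acinar, 10 duct and 9 islet genes, and with limma-voom 6, 10 and 9. Over all tested genes edgeR called 9.95% lower and 12.1% higher. The summed level of duct markers was 4316 and 3478 CPM in controls and 1018 and 1176 CPM in the libraries labelled poh1f/f, and that of islet markers 1890 and 1092 CPM against 480 and 189 CPM. Fibroblast markers, of which 5 of 10 fell, summed to 24751 and 28995 CPM against 10736 and 9188 CPM, and macrophage markers, of which 7 of 10 fell, to 4763 and 4288 CPM against 3071 and 2814 CPM. Of fat markers 9 of 10 rose, and of B lineage markers 9 of 11 rose and 1 fell. Their summed levels were 396 and 1063 against 4805 and 3942 CPM for fat and 998 and 877 against 6311 and 2822 CPM for B and plasma cells. Of 5 tested enterocyte genes 0 were called by edgeR (1 higher at an unadjusted p under 0.05, 1 higher with DESeq2 and 0 called with limma-voom). Enterocyte markers summed to 1064 CPM in knockout replicate 2 against 135 to 271 CPM in the others, and without that library 4 members were called lower (Cdkn1a, Zmat3, Plk2 and Eda2r). The part of these cell types in the lower p53 targets was not tested.

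Per length of merged exons, Ccng1 was the most abundant member in both groups and Eda2r the least. In controls the CPM per kilobase was 64.3 ± 4.15 for Ccng1 (SD, n = 2), followed by Phlda3 at 41.1 ± 0.0974, Cdkn1a at 39.2 ± 8.27, Sesn1 at 34.7 ± 1.46, Btg2 at 33.7 ± 4.54 and Trp53inp1 at 31.5 ± 5.13. From Phlda3 to Trp53inp1 each gene overlapped the next in order. Mdm2 (19.3 ± 0.397) and Plk2 (17.3 ± 0.33) came next, and Zmat3 (6.62 ± 0.181) and Eda2r (5.61 ± 0.0866) were lowest. In the libraries labelled poh1f/f the order changed: Cdkn1a went from place 3 to place 7 at 13.97 ± 1.54 CPM per kilobase, whereas Btg2 stood at place 2 with 38.4 ± 2.41 and Trp53inp1 at place 3 with 32.5 ± 6.83, next to Ccng1 at 40.3 ± 1.62. Phlda3 (25.7 ± 6.48), Sesn1 (23.5 ± 0.00679) and Mdm2 (16.7 ± 1.68) stood between Trp53inp1 and Cdkn1a, and Plk2 (8.52 ± 0.769), Zmat3 (3.1 ± 0.316) and Eda2r (2.24 ± 0.715) were again lowest. Ccng1 and Btg2 overlapped there, as did Btg2 and Trp53inp1, Trp53inp1 and Phlda3, and Phlda3 and Sesn1.

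Among the genes that act on the cell cycle, Cdkn1a and Plk2 fell and Btg2 did not pass. Cdkn1a encodes p21, the inhibitor of cyclin-dependent kinases through which p53 arrests cells (ENSMUSG00000023067.14, GRCm38 chromosome 17, 29090976 to 29100727, plus strand). It was at 160.2 and 118.6 CPM in control replicates 1 and 2 and at 45.7 and 53.5 CPM in the libraries labelled poh1f/f. The controls thus differed from each other by a factor of 1.35, and the lowest of them was still far above the highest library of the other group. Its log2 fold change was -1.49 ± 0.18 (95% interval -1.95 to -1.03, edgeR adjusted p = 0.00853), a level 2.81 times higher in controls, and it ranged from -1.26 without control replicate 1 to -1.69 without control replicate 2.

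Plk2, a polo-like kinase of centriole duplication that is also induced by serum (chromosome 13, 110395046 to 110400844, plus strand), was at 76.6 and 78.7 CPM in controls and at 40.7 and 35.8 CPM in the libraries labelled poh1f/f. Replicates of each group lay close together and the groups were far apart, with a log2 fold change of -1.02 ± 0.11 (edgeR adjusted p = 0.00656). Btg2, an antiproliferative protein that recruits the machinery of mRNA deadenylation (chromosome 1, 134075170 to 134079120, minus strand), showed a different picture. Its level was 101.2 and 83.6 CPM in controls and 110.1 and 100.8 CPM in the libraries labelled poh1f/f, so that the groups overlapped. Its difference of 0.19 ± 0.13 on the log2 scale had a 95% interval of -0.14 to 0.52 (edgeR adjusted p = 0.335), an interval that excludes a fall of the size seen for Cdkn1a or Plk2.

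Of the feedback genes of p53, Ccng1 fell and Mdm2 did not pass. Their 95% intervals overlapped, and the difference between them was not tested. Mdm2, the ubiquitin ligase that marks p53 for destruction (chromosome 10, 117688875 to 117710758, minus strand), was at 99.7 and 96.8 CPM in controls and at 90.8 and 78.7 CPM in the libraries labelled poh1f/f. The groups did not overlap but lay near each other, and the gene did not pass (log2 fold change -0.21 ± 0.11, 95% interval -0.49 to 0.06, edgeR adjusted p = 0.216). Ccng1, cyclin G1, which brings a phosphatase to Mdm2 (chromosome 11, 40748552 to 40755311, minus strand), was at 236.1 and 215.4 CPM in controls and at 145.5 and 137.5 CPM in the libraries labelled poh1f/f. The fall was 0.67 ± 0.11 in log2 units (95% interval of the log2 fold change -0.96 to -0.39, edgeR adjusted p = 0.0176), but this p became 0.052 without control replicate 1, and it was 0.0502 or 0.0956 when knockout replicate 1 or 2 was left out.

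The ratio of Cdkn1a to Mdm2 counts does not depend on how libraries are scaled. It was 1.61 and 1.23 in controls and 0.504 and 0.68 in the libraries labelled poh1f/f, so that Cdkn1a was the more counted gene in both controls and the less counted one in both other libraries. The ratio of Cdkn1a to Trp53 counts was 1.41 and 1.25 in controls against 0.461 and 0.532. No test of these ratios was made.

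Of the genes of cell death and survival, Eda2r and Zmat3 fell, and Phlda3 and Trp53inp1 did not pass. Eda2r, a receptor of the TNF receptor superfamily that binds ectodysplasin A2 (chromosome X, 97333840 to 97377216, minus strand), was at 32.7 and 33.4 CPM in controls and at 16.2 and 10.2 CPM in the libraries labelled poh1f/f. The controls were nearly equal and the other libraries differed by a factor of 1.58, with both below both controls. The log2 fold change was -1.32 ± 0.24 (edgeR adjusted p = 0.0216), and the gene was no longer called when control replicate 1 (0.109) or control replicate 2 (0.0872) was left out, at log2 fold changes of -1.34 and -1.31.

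Zmat3, a zinc finger RNA-binding protein that acts on splicing and transcript stability (chromosome 3, 32334792 to 32366014, minus strand), was at 77.1 and 74.2 CPM in controls and at 38.0 and 32.9 CPM in the libraries labelled poh1f/f. Its 2 groups were tight and well apart, and its log2 fold change of -1.09 ± 0.11 had the smallest adjusted p of the members (edgeR, 0.00634). Phlda3, a pleckstrin homology protein that competes with Akt for membrane lipids (chromosome 1, 135766119 to 135769136, plus strand), was at 64.2 and 64.0 CPM in controls and at 47.1 and 32.9 CPM in the libraries labelled poh1f/f. Both of the latter lay below both controls but differed by a factor of 1.43 from each other, and the gene just missed the threshold (log2 fold change -0.68 ± 0.19, edgeR adjusted p = 0.0582). It passed with DESeq2 (adjusted p = 0.013) and without knockout replicate 1 (-0.97, edgeR adjusted p = 0.00349), and stood at -0.44 when knockout replicate 2 was left out (0.159).

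Trp53inp1, a stress protein of autophagy and cell death (chromosome 4, 11156431 to 11174379, plus strand), was at 227.2 and 180.2 CPM in controls and at 241.7 and 179.1 CPM in the libraries labelled poh1f/f. Here the difference between replicates exceeded that between groups, and the log2 fold change of 0.05 ± 0.20 had a 95% interval from -0.46 to 0.55 (edgeR adjusted p = 0.89). Its sign turned without control replicate 2 (-0.11) and without knockout replicate 1 (-0.19). It was the 1 member whose sign was not the same in all 13 alternative settings.

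Sesn1, a sestrin that restrains the growth kinase complex mTORC1 under stress (chromosome 10, 41809935 to 41908424, plus strand), was at 142.2 and 133.9 CPM in controls. The libraries labelled poh1f/f were at 93.5 CPM each, both below the lower control. The fall of Sesn1 was 0.56 ± 0.09 in log2 units (edgeR adjusted p = 0.0182), with an adjusted p of 0.0563 without control replicate 1, 0.0901 without knockout replicate 1 and 0.102 without knockout replicate 2, although the log2 fold change stayed between -0.60 and -0.52.

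**Figure D2:**
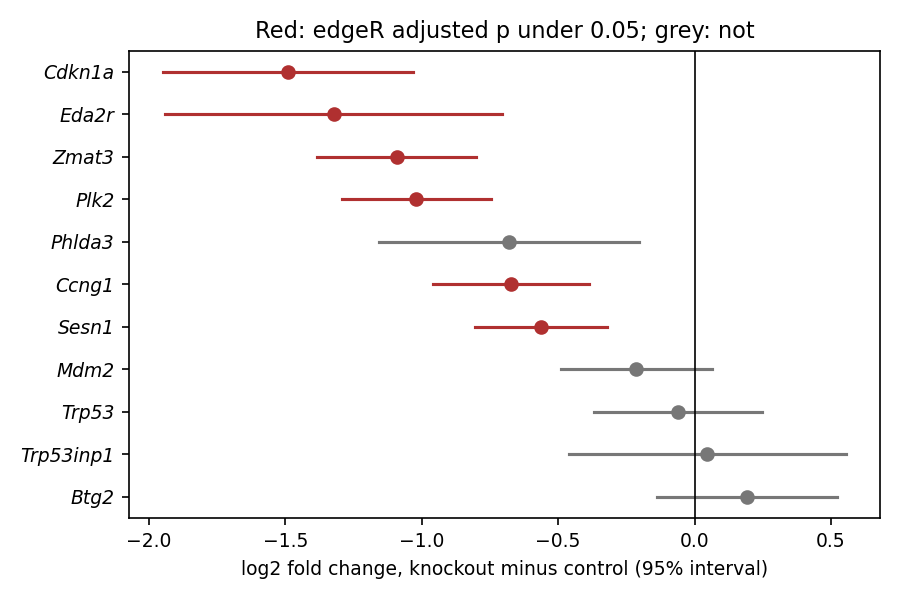
Log2 fold change, knockout minus control, with its 95% interval for the 10 core p53 targets and Trp53, red where the edgeR adjusted p was under 0.05 and grey where it was not. The called genes run from -1.49 for Cdkn1a to -0.56 for Sesn1, and the intervals of Mdm2, Trp53, Trp53inp1 and Btg2 include 0.

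**Figure D3:**
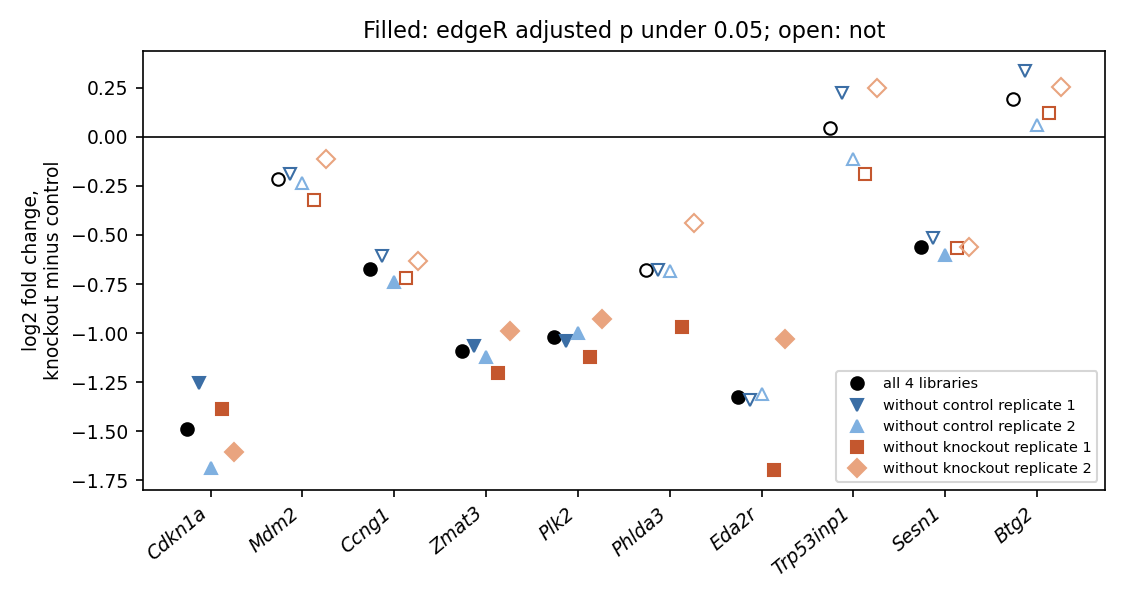
Log2 fold change of each member with all 4 libraries and with 1 library left out, filled where the edgeR adjusted p was under 0.05 and open where it was not. Cdkn1a, Zmat3 and Plk2 are filled in all 5 fits, while Phlda3 and Eda2r shift most between the fits without knockout replicate 1 (-0.97 and -1.70) and without knockout replicate 2 (-0.44 and -1.03).

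Trp53 RNA itself showed no difference that the test could detect. Its level was 113.9 and 94.9 CPM in controls and 99.3 and 100.6 CPM in the libraries labelled poh1f/f, which both lay between the controls (log2 fold change -0.06 ± 0.12, 95% interval -0.37 to 0.25, edgeR adjusted p = 0.743). The sign turned with no scaling beyond the library total (0.037) and without control replicate 1 (0.077). The abundance of p53 is set largely by protein turnover, on which RNA counts are silent.

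Of 19 regulators of p53 tested, 2 rose, 2 fell and 15 did not pass, with a median log2 fold change of 0.17. That is 10.5% in each direction, near the 12.1% higher and 9.95% lower of all tested genes, so the counts show nothing about the regulators as a group. Mdm4, a relative of Mdm2 that binds and restrains p53, rose by 0.65 ± 0.13 (edgeR adjusted p = 0.0288), from 199.8 and 235.8 CPM in controls to 348.6 and 337 CPM. Its adjusted p was 0.0625 without control replicate 1 and, without knockout replicate 1 or 2, 0.0905 or 0.0738. The count ratio of Mdm2 to Mdm4 was 0.499 and 0.411 in controls and 0.26 and 0.234 in the libraries labelled poh1f/f. Atm, the kinase that signals DNA breaks to p53, rose by 0.998 ± 0.222 (edgeR adjusted p = 0.0349), which became 0.0877 when control replicate 1 was left out. Chek2, a kinase downstream of Atm, fell by 0.75 ± 0.14 (edgeR adjusted p = 0.0243), with an adjusted p of 0.0899 without control replicate 1, 0.0712 without control replicate 2 and 0.0688 without knockout replicate 1. Cop1, another ligase for p53, fell by 0.36 ± 0.09 (edgeR adjusted p = 0.0492), a call that ended when any library was left out (adjusted p 0.112 and 0.0581 without control replicates 1 and 2, 0.261 and 0.283 without knockout replicates 1 and 2).

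Of 52 further targets of p53 tested in 3 lists, 14 fell, 6 rose and 32 did not pass, with a median log2 fold change of -0.35. The share that fell was 26.9% against 9.95% of all tested genes, and the share that rose, 11.5%, was near the 12.1% over all tested genes. In the arrest and repair list of 16 genes, 3 fell and 3 rose, which is 18.8% in each direction. Gadd45a, a stress sensor of growth arrest, was at 61.8 and 48.2 CPM in controls and at 14.1 and 14.8 CPM in the libraries labelled poh1f/f (-1.93 ± 0.16, edgeR adjusted p = 0.00402). Sfn, the epithelial 14-3-3 protein of mitotic arrest, was at 60.1 and 58.6 CPM against 22.6 and 25.1 CPM (-1.31 ± 0.11, edgeR adjusted p = 0.00428). Both kept their call without each library in turn. Rrm2b, the p53-induced ribonucleotide reductase subunit, rose by 0.63 ± 0.11 and Pml, the organiser of nuclear bodies, by 0.83 ± 0.15 (edgeR adjusted p = 0.0206 and 0.0209). The other called genes, named after their values were seen, were Psrc1 (-1.58 ± 0.26), a spindle protein, and Ddb2 (0.78 ± 0.15), which recognises ultraviolet damage. Without control replicate 1 none of the 3 rises was called by edgeR (adjusted p 0.0791 for Rrm2b, 0.0864 for Pml and 0.0675 for Ddb2) and 2 falls were, with Psrc1 at 0.104. Without control replicate 2, 1 rise and 2 falls were called (0.0586 for Rrm2b, 0.0686 for Ddb2 and 0.0615 for Psrc1), and Rrm2b was at 0.0859 without knockout replicate 2.

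In the apoptosis list, 3 of 13 genes fell and 1 rose. These are 23.1% lower and 7.69% higher, beside 9.95% and 12.1% of all tested genes. Perp, a desmosomal and death effector of epithelia, fell by 1.18 ± 0.22 and Ei24, a protein of the endoplasmic reticulum, by 0.46 ± 0.11 (edgeR adjusted p = 0.0231 and 0.0385). Bbc3, the BH3-only protein PUMA, was named after its values were seen and fell by 0.78 ± 0.18 (edgeR adjusted p = 0.0397). Fas, the death receptor of lymphocytes and other cells, rose by 0.58 ± 0.15 at the edge of the threshold (edgeR adjusted p = 0.04997). The rise of Fas was called in no fit that left out a library (adjusted p 0.0547 to 0.134), and the falls numbered 0 without control replicate 1, 2 without control replicate 2, and 1 and 2 without knockout replicates 1 and 2. Perp was at 0.122 and 0.0621 without control replicates 1 and 2, and Ei24 at 0.0874, 0.14 and 0.2 without control replicate 1, knockout replicate 1 and knockout replicate 2. Bbc3 was not called without control replicate 1 (0.135), control replicate 2 (0.0561), knockout replicate 1 (0.052) or knockout replicate 2 (0.0913).

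Of 23 targets of metabolism and secretion tested, 8 fell, 2 rose and 13 did not pass, with a median log2 fold change of -0.56. These are 34.8% lower and 8.7% higher, beside 9.95% and 12.1% of all tested genes. Ak1, adenylate kinase, was at 82.7 and 86.4 CPM in controls and at 29.2 and 25.0 CPM in the libraries labelled poh1f/f (-1.64 ± 0.12, edgeR adjusted p = 0.00302). Gls2, mitochondrial glutaminase, fell by 2.16 ± 0.28 (edgeR adjusted p = 0.00983), a call that ended at 0.0607 without control replicate 1. Lpin1, a phosphatidate phosphatase of fat synthesis, rose by 1.19 ± 0.14 (edgeR adjusted p = 0.00834) and kept its call without each library in turn. Tap1, the peptide transporter of antigen presentation, rose by 1.28 ± 0.24 (edgeR adjusted p = 0.0228), with an adjusted p of 0.117 and 0.0579 without control replicates 1 and 2. The falls in this list numbered 1 without control replicate 1 and 5 without knockout replicate 2, and 1 rise was called without either control replicate.

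Genes of the cell cycle that p21 keeps low through the DREAM repressor complex were also read. Of 20 tested, 7 rose and 13 did not pass, with a median log2 fold change of 0.14, and 0 fell by edgeR. The shares were 35% higher and 0% lower, beside 12.1% and 9.95% of all tested genes. Before adjustment 1 was lower at p under 0.05, namely E2f1 (-0.59 ± 0.18), named after its values were seen. The lower calls were 1 with DESeq2 and 0 with limma-voom. Mcm5, a subunit of the replication helicase, was at 20.2 and 20.5 CPM in controls and at 47.1 and 48.2 CPM in the libraries labelled poh1f/f (1.23 ± 0.11, edgeR adjusted p = 0.00464). Top2a, topoisomerase of replicating DNA, was at 52.2 and 49.5 CPM against 88.4 and 82.2 CPM (0.75 ± 0.10, edgeR adjusted p = 0.01). The rises numbered 2 without control replicate 1, 3 without control replicate 2 and 4 without knockout replicate 1, and Mcm5 and Top2a were among them each time. Lymphocyte markers moved with these genes: 11 of 11 T cell genes rose, with a summed level of 46.7 and 36.6 CPM in controls and 496 and 561 CPM in the libraries labelled poh1f/f. Their part in the rise of cell cycle genes was not tested.

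**Figure D4:**
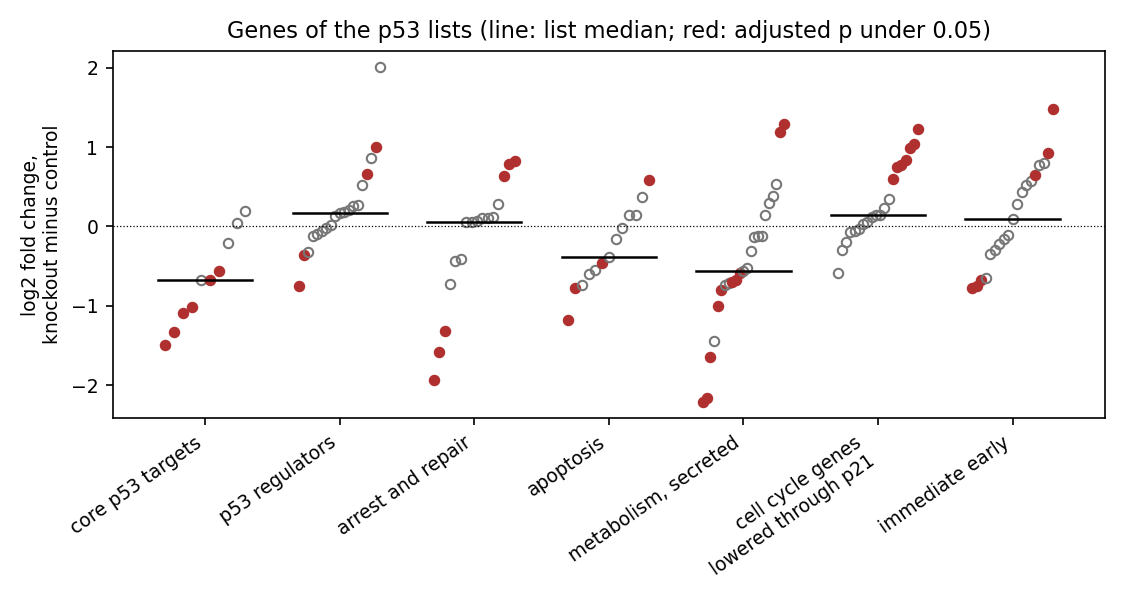
Log2 fold change of each tested gene in the core p53 targets and 6 related lists, with a line at the list median and red points where the edgeR adjusted p was under 0.05. The core targets have a median of -0.68 and no red point above 0, the cell cycle genes have 7 red points, all above 0, and the other lists have red points on both sides.

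Family relatives of the members that are not counted among them were read in the same way. Of 24 tested, 3 rose, 2 fell and 19 did not pass, with a median log2 fold change of -0.10. These are 12.5% higher and 8.33% lower, near the 12.1% and 9.95% of all tested genes. Tnfrsf19, a receptor close to Eda2r, fell by 1.61 ± 0.12 and Cdkn2b, an inhibitor of the cyclin D kinases, by 1.07 ± 0.18 (edgeR adjusted p = 0.00313 and 0.0184, with 0.0567 for Cdkn2b without control replicate 2). The kinase inhibitors Cdkn2d and Cdkn2c rose by 0.94 ± 0.17 and 0.78 ± 0.16 (edgeR adjusted p = 0.0215 and 0.0279), and Mdm4 was the third rise. None of the 3 rises was called without control replicate 1 (edgeR adjusted p 0.0777 for Cdkn2d, 0.125 for Cdkn2c and 0.0625 for Mdm4). Cdkn2c was also at 0.0786 without control replicate 2 and 0.0754 without knockout replicate 1. Without knockout replicate 1 there were 4 falls.

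Plk2, Btg2 and Cdkn1a also answer to growth factors and to stress other than p53, so that immediate early genes were read beside them. Of 19 tested, 3 rose, 3 fell and 13 did not pass, with a median log2 fold change of 0.10. The share of 15.8% in each direction stands beside 12.1% higher and 9.95% lower over all tested genes. Egr3 rose by 1.48 ± 0.14 and Zfp36, a destabiliser of inflammatory mRNA, by 0.93 ± 0.12 (edgeR adjusted p = 0.00546 and 0.00959, with 0.053 for Zfp36 without control replicate 1). Jun fell by 0.75 ± 0.10 and Ier3 by 0.67 ± 0.14 (edgeR adjusted p = 0.0116 and 0.0297). Jun was at 0.0571 without knockout replicate 2, and Ier3 at 0.126, 0.067 and 0.0881 without control replicate 1, control replicate 2 and knockout replicate 2. Without control replicate 1, 1 rise and 1 fall were called, without control replicate 2 there were 2 rises and 1 fall, and without knockout replicate 2 there were 6 rises and 1 fall.

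The genes whose profile over the 4 libraries was most like that of Cdkn1a were Tm4sf4, Ms4a7 and 0610040J01Rik, out of 10961 protein-coding genes of at least 10 CPM on average. Likeness was the sum over libraries of absolute differences in centred log2 CPM, which was 0.118, 0.118 and 0.188. Tm4sf4 was at 52.2, 41.4, 15.3 and 17.7 CPM in control replicates 1 and 2 and knockout replicates 1 and 2. Ms4a7, a membrane protein known from macrophages, was at 270.9, 213.1, 78.8 and 94.2 CPM in the same order. Over only 4 libraries this likeness is a description.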

How the data were processed

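The authors deposited 1 table of whole-number read counts per gene symbol for each library, not normalised. Per the submitters' processing notes, the tools were featureCounts 2.0.1, FastQC 0.11.9, SAMtools 1.7, STAR 2.7.6a and Trim Galore 0.6.6, and the build GRCm38. The strand setting, the annotation release and how multiply aligned reads were counted were not given in the sources used here, and a read in 2 overlapping or opposite genes cannot be assigned to one. Groups and replicate numbers came from the sample titles.

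Counts were tested in edgeR 4.0.16 (R 4.3.3) with filterByExpr, TMM factors, the quasi-likelihood F test (group alone in the model), and Benjamini-Hochberg adjustment over all 19134 tested genes at 0.05. Each SE is the size of the log2 fold change over the root of F. This step was tested on simulated data. A chi-square comparison of replicate counts gave, per degree of freedom, 46.2 in controls and 32.5 in the other group, far above sampling noise. Gene positions and merged exon lengths came from GENCODE M21 (GRCm38).

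The members and gene lists were chosen with earlier results of these data known. The rule names all members, Psmd14, Trp53, of each pathway list the called genes with the smallest p (up to 2 in each direction), and the 3 genes nearest to Cdkn1a. Other markers were read too. By edgeR 3 of 9 neutrophil markers were higher and 2 lower, and 2 of 10 endothelial markers were higher. Of Schwann cell markers 4 of 10 were higher and 1 lower. Of smooth muscle markers 0 of 10 were called by edgeR, DESeq2 or limma-voom, and 0 at an unadjusted p under 0.05. Over all tested genes edgeR called 12.1% higher and 9.95% lower. The summed level of neutrophil markers was 188 and 173 CPM in controls and 108 CPM in each library labelled poh1f/f. Alternatives were 4 other scalings, 2 other filters, DESeq2 1.42.0, limma-voom (limma 3.58.1), a replicate block, and fits without 1 library, which take the spread of the remaining lone one from the opposite group.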

Additional observations from a re-analysis of the deposited data

How the results depend on the processing

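With 2 libraries per group, calls depended on leaving out a library. Such a fit has fewer libraries and takes the spread of the lone one from the opposite group. Without each library in turn, members called lower numbered 3 to 5, their median ran from -0.84 to -0.60, all genes called higher from 702 to 2338 and lower from 424 to 1696, Psmd14 from 0.09 to 0.31, Trp53 from -0.19 to 0.077 and Trp53inp1 from -0.19 to 0.25. In the same fits regulators had 0 to 3 higher and 0 to 1 lower, arrest and repair genes 0 to 3 and 2 to 3, apoptosis genes 0 and 0 to 2, metabolic and secreted targets 1 to 2 and 1 to 10, cell cycle genes 2 to 6 higher, relatives 0 to 2 and 2 to 4, and immediate early genes 1 to 6 and 1 to 2. The other 9 settings left 6 or 7 members lower and 0 higher. No scaling beyond the library total gave Trp53 a log2 fold change of 0.037, 1 regulator and 1 apoptosis gene lower, a median of all genes of 0.10, and a split of 2827 higher and 1527 lower genes against 2320 and 1904. DESeq2 called 4 regulators higher, 5 apoptosis genes, 1 cell cycle gene and 4 relatives lower, and 5 immediate early genes higher. Regulators had 1 lower gene with DESeq2 size factors, upper quartile scaling, TMM without acinar, immunoglobulin and T cell receptor genes, either other filter, and limma-voom. Either filter gave 0 apoptosis genes higher.

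Same-numbered libraries did not deviate together (correlation 0.03 over 19134 genes), and nothing in the labels pairs them. With the replicate number as a block, 7 members were lower, Phlda3 included (edgeR adjusted p = 0.0456), and their median was -0.69. All genes called were 1960 higher and 1432 lower, regulators 1 higher and 1 lower, apoptosis genes 0 higher and 1 lower, and cell cycle genes 4 higher. The cause of these shifts was not tested.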
